A study of Mus musculus with 12 samples.

Results

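The genes of oxidative phosphorylation were followed along the cochlea of the mouse, from the apical turn through the middle turn to the basal turn. A gene was taken as a member when its symbol on the array named a nuclear-encoded subunit of complex I (Nduf), complex II (Sdh), complex III (Uqcr), complex IV (Cox) or the ATP synthase (Atp5). This rule used names alone and took 84 of the 19505 genes measured, with 402 of the 172966 spots that were not controls. Of the 84 genes, 34 were placed in complex I, 4 in complex II, 8 in complex III, 18 in complex IV and 15 in the ATP synthase. The remaining 5 (Cox7a2l, Ndufa4l2, Atp5s, Atp5sl and Cox4nb) carry such a name but are not structural subunits. Cox4nb, a subunit of the endoplasmic reticulum membrane complex, shares only its name and its chromosomal neighbourhood with Cox4i1.

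Oxidative phosphorylation takes place in the inner mitochondrial membrane. Complexes I and II pass electrons from NADH and succinate to ubiquinone, complex III passes them to cytochrome c, and complex IV passes them to oxygen, while complexes I, III and IV pump protons that drive the ATP synthase. Most subunits are encoded in the nucleus and a few in mitochondrial DNA. In the cochlea, the marginal cells of the stria vascularis and the fibrocytes of the spiral ligament are rich in mitochondria, since they drive ion transport into the endolymph, and hair cells and neurons also depend on ATP.

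Cochleae of male C57BL/6 mice aged 6 weeks, carrying no stated mutation and given no stated treatment, were dissected into apical, middle and basal turns with the lateral wall and the organ of Corti, and 25 ng of total RNA of each sample was labelled with Cy3 and hybridised to an exon array of 60-base probes. There were 4 samples of each turn, numbered 1 to 4, and the labels speak of 4 mice. They do not say which samples came from the same mouse, and the main tests had no term for the sample number. The 4 arrays of a turn lay on 1 slide, so turn and slide cannot be told apart in any comparison given here. The p-values measure the spread between these arrays, and their number limits the precision. Between 77.4% and 81.4% of the probes on an array were well above background, and the 75th percentile of signal before scaling lay between 534 and 721.6. As the tissue was bulk, fewer cells of a type and less RNA per cell cannot be told apart.

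The 84 genes were read by 393 probes, of which 387 were well above background in each turn and 4 in none. To show what separates similar isoforms on this array, a probe of Cox7a1, a subunit of complex IV known from heart, skeletal muscle and brown fat, is printed with the probe of its widely expressed partner Cox7a2 to which it is most alike. Capitals mark the longest run of letters that both probes share, which was 12 bases over the 16 pairs of probes of these genes. The probe of Cox8b, another such isoform, is printed below them and shared at most 7 bases in a row with the probes of Cox8a.
Cox7a1 probe, chr7:30970316-30970375 (mm9, plus strand): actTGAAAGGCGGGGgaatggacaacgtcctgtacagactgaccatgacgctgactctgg
Cox7a2 probe, chr9:79604092-79604151 (mm9, minus strand): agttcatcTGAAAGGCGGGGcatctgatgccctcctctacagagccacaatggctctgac
Cox8b probe, chr7:148086148-148086207 (mm9, minus strand): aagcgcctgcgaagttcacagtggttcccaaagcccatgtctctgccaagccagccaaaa
The apical minus basal difference on the log2 scale was -1.67 for the printed Cox7a1 probe, -0.51 for the Cox7a2 probe and -0.65 for the Cox8b probe.

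The oxidative phosphorylation genes were lowest in the apical turn. The median deviation of the 84 genes from their 12-array means was -0.18, -0.25, -0.26 and -0.11 on the log2 scale in apical samples 1 to 4. It was 0.08, 0.01, 0.03 and 0.11 in the middle turn and 0.08, 0.16, 0.13 and 0.21 in the basal turn. Each apical array lay below each array of the other turns, while the middle and basal arrays overlapped. With all signals scaled to the 75th percentile of each array, 74 of the 84 genes were higher in the basal than in the apical turn at an adjusted p under 0.05 (limma, Benjamini-Hochberg over all genes), a call made for 21.6% of all genes. In the opposite direction 0 members were called, against 17.6% of all genes, with 2 (Cox6a2 and Cox7b2) at an unadjusted p under 0.05, and the unmoderated test also called 0. The median difference of the members was -0.33, beside -0.04 over all genes.

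**Figure D1:**
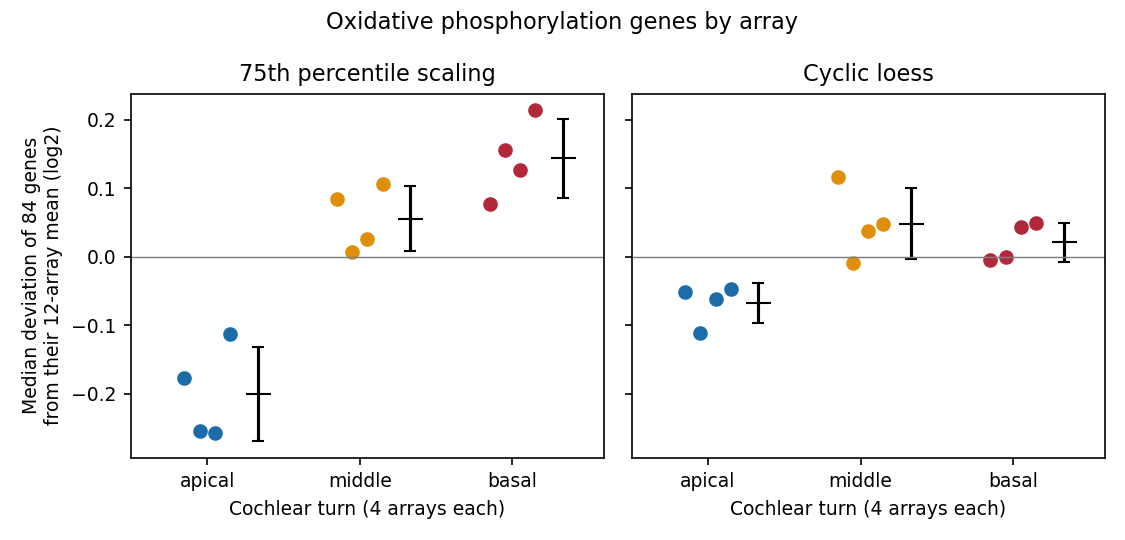
Median deviation of the 84 oxidative phosphorylation genes from their own 12-array means (log2, y axis) in each array of the 3 turns, after scaling to the 75th percentile (left) and after cyclic loess (right). Points are arrays and the black marks give the mean and SD of 4 arrays. On the left the 4 apical arrays lie between -0.26 and -0.11 and all others above 0. On the right the turns are closer together.

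This result depended on the scaling. The oxidative phosphorylation genes were bright on the array, and bright genes as a whole were lower in the apex. In all, 75 of the 84 members lay in the brightest decile of genes, where the apical minus basal median was -0.25 over that whole decile. There the members had a median of -0.34 and the other 1876 genes -0.25, with 71 members and 57.7% of the other genes called higher in the base. After cyclic loess normalization, which removes differences that follow brightness, 30 of the 84 members were higher in the base (21% of all genes) and 1, Cox7a2l, was higher in the apex (17.4% of all genes). The members' median was then -0.05, beside -0.03 over all genes, and in the brightest decile it was -0.06 for members and -0.05 for the others. In that decile 27 of the 75 members and 35% of the other genes were then called higher in the base. Turn and slide cannot be told apart for this trend with brightness either.

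**Figure D2:**
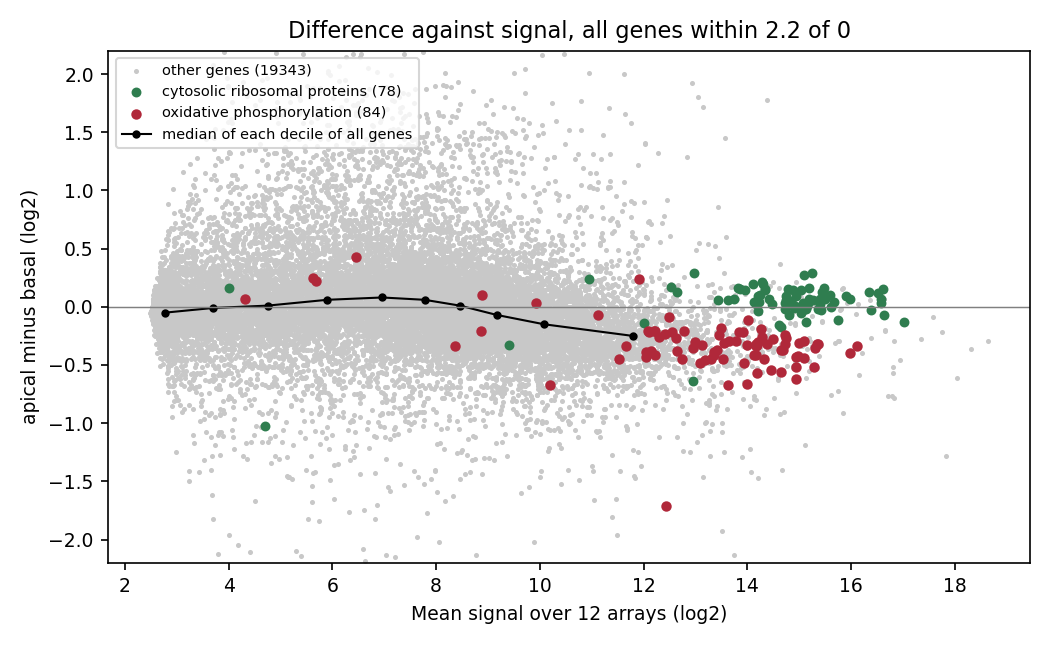
Apical minus basal difference (log2, y axis) against the mean signal over 12 arrays (log2, x axis) for all genes within 2.2 of 0, with the 84 oxidative phosphorylation genes in red and 78 cytosolic ribosomal protein genes in green. The black line joins the medians of all genes by decile of signal and ends at -0.25. The red points lie mostly below the green points at the same signal.

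Bright genes did not all share the shift. The 78 cytosolic ribosomal protein genes, of which 75 lay in the brightest decile, had an apical minus basal median of 0.06, with 4 called higher apically and 2 basally. Under cyclic loess their median was 0.35, with 71 called higher apically and 2 basally. The gap between the median of the oxidative phosphorylation genes and that of the ribosomal protein genes was -0.39 with the 75th percentile and -0.40 with cyclic loess. For apical minus middle it was -0.29 and -0.33. The 75th percentile, median and spike-in scalings shift all genes of an array alike, so this gap could not change between them. For apical minus basal it was -0.37 with quantile normalization and -0.40 with cyclic loess. Both lists lay mostly in the brightest decile, so scalings that follow brightness shift them nearly alike. All 5 scalings used the same arrays.

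**Figure D3:**
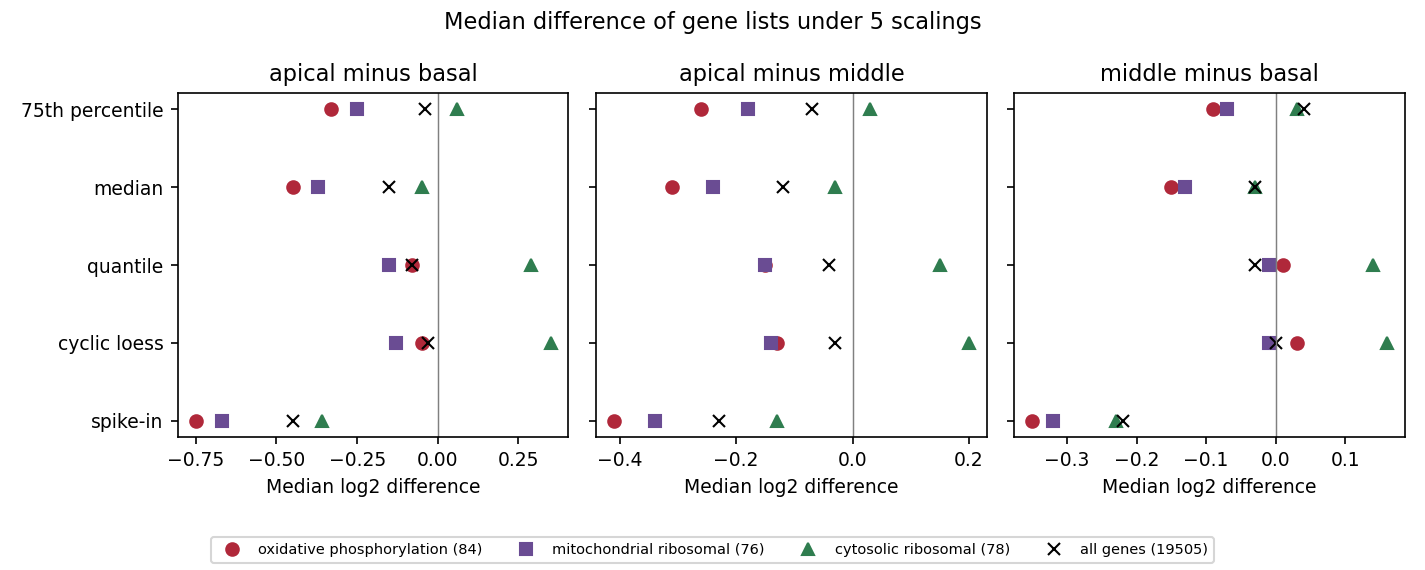
Median log2 difference of 4 gene lists (x axis) for the 3 comparisons of turns under 5 scalings (y axis). The oxidative phosphorylation genes lie to the left of the cytosolic ribosomal protein genes under each scaling, while their distance from the median of all genes shrinks to 0.00 for apical minus basal with quantile normalization and to -0.02 with cyclic loess.

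Under all 5 scalings (75th percentile, median, quantile, cyclic loess and spike-in probes), 30 members were called higher in the basal than in the apical turn (17.9% of all genes) and 0 higher in the apical turn (4.69% of all genes). They were 12 of the 34 complex I genes, 3 of 4 in complex II, 5 of 8 in complex III, 4 of 18 in complex IV, 3 of 15 in the ATP synthase and 3 of the 5 related genes. These scalings are not independent, since they start from the same signals. Scaling to the array median and to the spike-in probes moved the median of all genes to -0.15 and -0.45 for apical minus basal, and that of the members to -0.45 and -0.75.

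**Figure D4:**
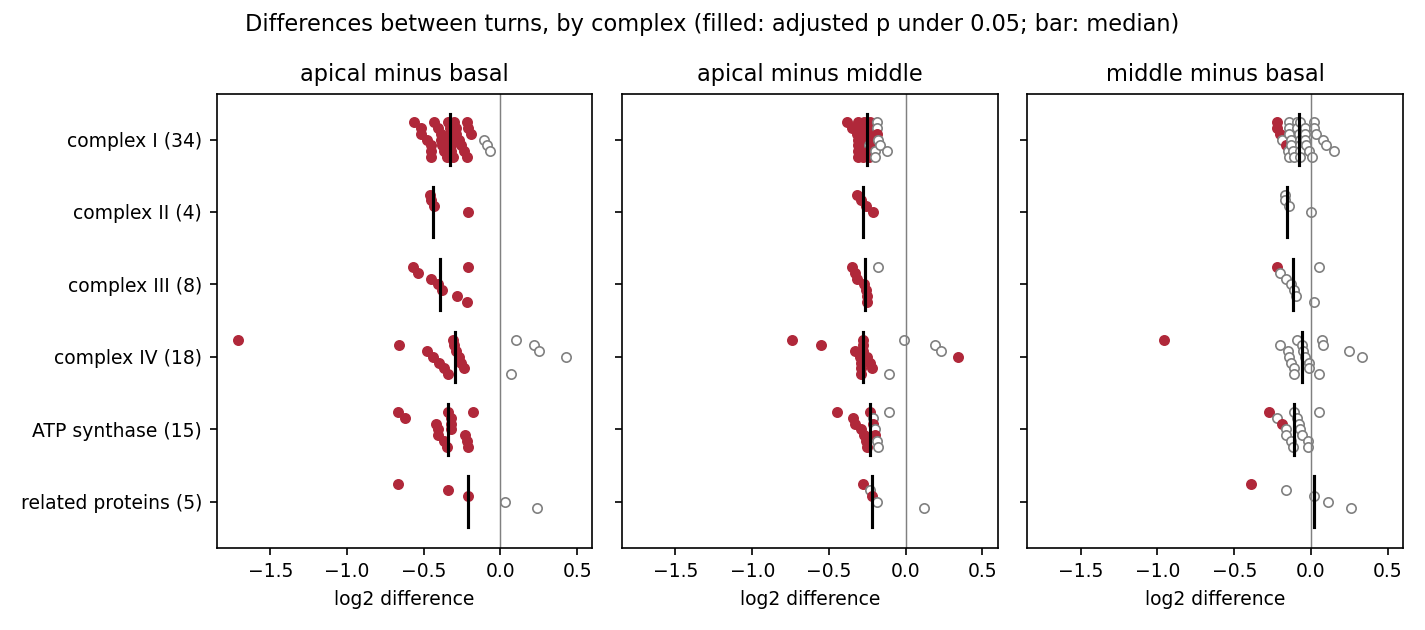
Log2 difference of each of the 84 genes (x axis) in the 3 comparisons of turns, by complex (y axis, with the number of genes). Filled points had an adjusted p under 0.05 and bars give the median of each complex. In the left panel Cox7a1 stands at -1.71, and in complex IV 5 open points lie above 0.

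Complex I, the entry point for electrons from NADH, had 31 of 34 genes called higher in the base than in the apex, with differences from -0.56 to -0.07 and a median of -0.33. Ndufa1, an accessory subunit needed for assembly of the membrane arm, read 22120, 20120, 18750 and 22590 in apical, 27330, 27390, 25870 and 27540 in middle and 30440, 31810, 29430 and 31290 in basal arrays. The 3 turns did not overlap. The apical minus basal difference was -0.56 ± 0.062 (SE, n = 4 per turn, adjusted p = 6.0e-05), and -0.26 with cyclic loess (adjusted p = 9.8e-04). Ndufa13, also called GRIM-19, differed by -0.52 ± 0.055 (adjusted p = 3.8e-05), and Ndufb9 by -0.48 ± 0.053 (adjusted p = 5.6e-05). Ndufs6, which sits near the electron path, differed by -0.52 (adjusted p = 9.2e-05). Of the electron-carrying core, Ndufv1, which binds NADH, differed by -0.27 ± 0.062 (adjusted p = 0.0051) with the 75th percentile and by -0.05 (adjusted p = 0.57) with cyclic loess. The 3 complex I genes not called were Ndufs1, Ndufa10 and Ndufa5, at -0.07, -0.09 and -0.11.

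Ndufs1, the largest iron-sulfur subunit, was not read alike along its length. Its mean signal was 2090 ± 110 in apical, 2440 ± 150 in middle and 2200 ± 130 in basal arrays (SD, n = 4). Of its 17 probes, the 10 with the lowest coordinates (chr1:63190360-63206383, mm9) gave apical minus basal differences from -0.26 to -0.06, the next 3 from -0.03 to 0.02, and the 4 with the highest coordinates (chr1:63212865-63217482) from 0.12 to 0.18. The gene mean of -0.07 thus joined probes of opposite sign. None of the 4 probes with the highest coordinates was called (adjusted p from 0.065 to 0.25, limma over all probes). Of the 10 with the lowest, only those starting at 63203706 and 63206324 were (adjusted p = 0.04 and 0.045). Sdha had a like range, from -0.37 to 0.09 over its 15 probes, with the highest value at its highest coordinates. Atp5a1 ran from -0.36 to 0.01 over 12 probes. Probe brightness differed along these genes too. The mean log2 signal was 14.08 at the lowest and 8.45 at the highest coordinates of Ndufs1, and 14.56 and 10.93 for Sdha. It was 11.87 for the Atp5a1 probe at 0.01. The part of brightness in these differences was not tested. In 74 of the 83 members with more than 1 probe, all probes had one sign, and the median range within a gene was 0.09.

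Complex II, or succinate dehydrogenase, which also belongs to the citric acid cycle, had all 4 genes called higher in the base. Sdhb, the iron-sulfur subunit, read 7825, 7747, 7514 and 8437 in apical, 9686, 9232, 9556 and 9999 in middle and 10340, 10960, 10360 and 11770 in basal arrays, with no overlap between turns. It differed by -0.46 ± 0.057 (adjusted p = 1.2e-04), and the anchors Sdhc and Sdhd by -0.43 and -0.45. Under cyclic loess these were -0.22 (adjusted p = 0.0015), -0.23 and -0.29. Sdha, the flavoprotein, differed by -0.21 ± 0.044 (adjusted p = 0.0030), but by -0.01 (adjusted p = 0.92) with cyclic loess.

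Complex III, the cytochrome bc1 complex, had all 8 genes called higher in the base. The small subunit Uqcr10 read from 14070 to 15980 in apical, 18530 to 20110 in middle and 21080 to 24540 in basal arrays, again without overlap. Its difference was -0.57 ± 0.062 (adjusted p = 5.1e-05), and -0.30 (adjusted p = 3.9e-04) with cyclic loess. Uqcrb, another small subunit, stood at -0.54. The Rieske iron-sulfur protein Uqcrfs1 stood at -0.38 ± 0.079 (adjusted p = 0.0030). The core protein Uqcrc1 stood at -0.21 ± 0.065 (adjusted p = 0.023), and at -0.01 (adjusted p = 0.93) with cyclic loess.

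Complex IV, cytochrome c oxidase, held the gene with the widest difference among the members. Cox7a1 read 3241, 3108, 2823 and 3466 in apical, 4617, 5109, 5488 and 5980 in middle and 10260, 10300, 9168 and 11510 in basal arrays. The turns were separated stepwise with no overlap. Cox7a1 was 3.26-fold higher in the base than in the apex (log2 difference -1.71 ± 0.096, adjusted p = 6.0e-07). The middle turn stood 1.67-fold above the apex (-0.74, adjusted p = 0.0015) and the base 1.95-fold above the middle turn (-0.96, adjusted p = 1.1e-04). Its 4 probes gave apical minus basal differences from -1.76 to -1.67, and with 1 array left out the gene stayed between -1.76 and -1.65. Under cyclic loess it was -1.50 (adjusted p = 3.4e-07). A rule modelled on that of the study was applied, at least 2-fold between 2 turns after a test over the 3 turns. The test here was a moderated F test (limma, adjusted p under 0.05, Benjamini-Hochberg), while the study used a one-way analysis of variance. Cox7a1 was the 1 member of the 84 that passed (4.69% of all genes passed).

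Cox8b, like Cox7a1 known from heart, muscle and brown fat, read 12600, 12430, 11120 and 13070 in apical, 18630, 16740, 17670 and 19170 in middle and 18180, 20220, 19700 and 19840 in basal arrays. The apical arrays lay below the rest, and the middle and basal arrays overlapped. It was 1.59-fold higher in the base than in the apex (log2 difference -0.66 ± 0.065, adjusted p = 2.5e-05) and 1.47-fold higher at the middle turn than at the apex. The middle minus basal difference was -0.11 (adjusted p = 0.24). The widely expressed partners differed less from apex to base, by -0.48 ± 0.072 for Cox7a2 and by -0.37 ± 0.063 for Cox8a. Whether the isoforms differed from their partners in the size of the change was not tested.

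Most of the other tissue-restricted isoforms of complex IV had probes near background. Cox4i2, known from lung, had a mean signal of 53 ± 6.6 in apical and 45.4 ± 5.8 in basal arrays, with 2 of its 4 probes well above background. Its brightest probe, with a mean log2 signal of 10.14, gave an apical minus basal difference of -0.06 (adjusted p = 0.55, limma over all probes). Cox6a2, the heart and skeletal muscle isoform, read 56.4 ± 3.0 in apical, 44.5 ± 4.2 in middle and 47.6 ± 6.0 in basal arrays, with 3, 1 and 2 of its 3 probes well above background. It was the 1 member called higher in the apex than in the middle turn (0.34 ± 0.097, adjusted p = 0.043), a difference that was 0.04 (adjusted p = 0.66) with normexp background correction. Cox7b2 and Cox8c, known from testis, were at 0.43 (adjusted p = 0.10) and 0.07 (adjusted p = 0.74) and Cox6b2, with 509 ± 35 in apical and 474 ± 24 in basal arrays, at 0.10 (adjusted p = 0.42). The partner subunits Cox4i1, Cox6a1, Cox6b1 and Cox7b were all higher in the base, at -0.40, -0.44, -0.27 and -0.24. Ndufa4, now counted in complex IV, stood at -0.31. Under cyclic loess Cox5a, at -0.26 with the 75th percentile, stood at 0.03, Cox6b1 and Cox7b at 0.02 and 0.06, and Cox4i1, Ndufa4 and Cox8a at -0.06, -0.05 and -0.07, none of them called.

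**Figure D5:**
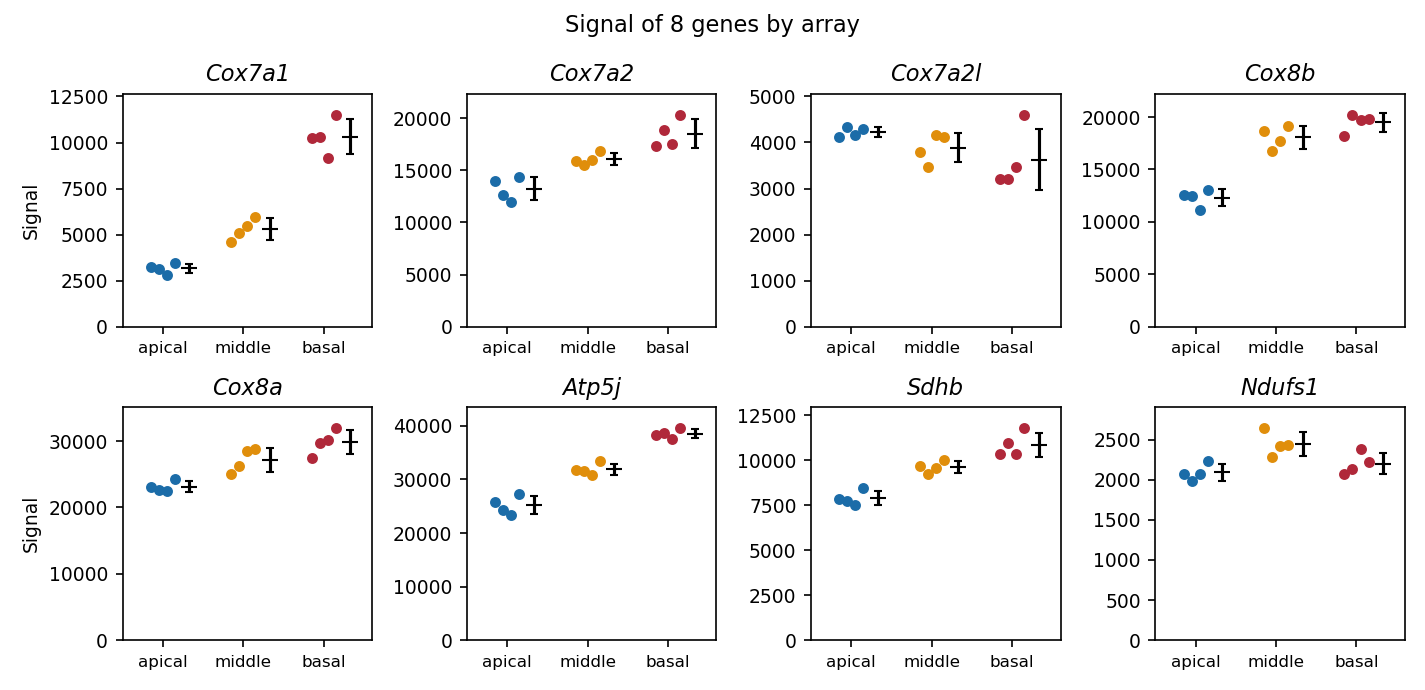
Signal of 8 genes (y axis, from 0) in each array of the 3 turns, with the mean and SD of 4 arrays beside the points. Cox7a1 increases in steps from 3160 ± 270 in the apex to 10300 ± 960 in the base, Atp5j and Sdhb in smaller steps, while Ndufs1 and Cox7a2l show no such rise.

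The ATP synthase had all 15 genes called higher in the base than in the apex, from -0.67 to -0.18. Atp5j, coupling factor 6 of the peripheral stalk, read 25740, 24390, 23390 and 27250 in apical, 31840, 31490, 30910 and 33370 in middle and 38320, 38660, 37640 and 39570 in basal arrays. It differed by -0.62 ± 0.054 between apex and base (adjusted p = 1.1e-05), with no overlap between turns, and by -0.31 (adjusted p = 9.0e-05) with cyclic loess. Atp5e, a subunit of the central stalk, stood at -0.67 ± 0.11 (adjusted p = 5.6e-04). The catalytic subunit Atp5b stood at -0.41 ± 0.059 (adjusted p = 2.8e-04), and at -0.14 (adjusted p = 0.064) with cyclic loess. Atp5a1 stood at -0.22 (adjusted p = 0.011), and at 0.05 (adjusted p = 0.46) with cyclic loess.

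Among the 5 genes that carry the name only, Cox4nb differed by -0.67 ± 0.081 (adjusted p = 1.1e-04), with signals from 909.8 to 985.1 in apical and 1274 to 1694 in basal arrays. Ndufa4l2, a relative of Ndufa4, had a mean signal of 292 ± 26 in apical and 369 ± 11 in basal arrays and differed by -0.34 ± 0.064 (adjusted p = 0.0015). Atp5s was called higher in the base at -0.21, and Atp5sl was not called at 0.03. Cox7a2l, which is outside the rule for named genes, read 4109, 4326, 4171 and 4295 in the apex and 3215, 3215, 3473 and 4603 in the base. Basal sample 4 lay above the other basal arrays and above all apical ones. Its difference was 0.24 (adjusted p = 0.11), and 0.43 (adjusted p = 0.0062) with cyclic loess.

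Between the apical and the middle turn, 62 of the 84 members were higher in the middle turn (7.61% of all genes) and 1, Cox6a2, was higher in the apex (4.42% of all genes). The members' median was -0.26, beside -0.07 over all genes. In the brightest decile 60 of the 75 members and 23.2% of the other genes were called higher in the middle turn, and 16 and 9.33% with cyclic loess. Of complex I 26 of 34 genes were called, of complex II 4 of 4, of complex III 7 of 8, of complex IV 13 of 18 and of the ATP synthase 10 of 15, all higher in the middle turn. Cyclic loess left 17 members higher in the middle turn (5.24% of all genes) and 0 higher in the apex (4.63% of all genes), with 3 (Cox6a2, Cox6b2 and Cox7a2l) at an unadjusted p under 0.05. Those 17 included Cox7a1, Cox8b, Sdhb, Sdhc, Uqcr10, Uqcrb and 9 genes of complex I. Leaving out apical sample 2, apical sample 3, middle sample 1 or middle sample 4 lowered the 62 to 26, 36, 37 and 28, while the members' median stayed between -0.28 and -0.23.

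Between the middle and the basal turn, 9 members were higher in the base (9.23% of all genes) and 0 higher in the middle turn (11.6% of all genes), with 2 (Atp5sl and Ndufs1) at an unadjusted p under 0.05. The 9 included Cox7a1 at -0.96, Cox4nb at -0.39 and Atp5j at -0.27, which were the 3 called under every scaling (7.87% of all genes). In the brightest decile 8 of the 75 members and 23.3% of the other genes were called higher in the base, and 2 and 15.3% with cyclic loess. With cyclic loess 3 members were higher in the base (9.35% of all genes) and 1, Ndufs1, was higher in the middle turn (10.4% of all genes). The members' median changed sign, from -0.09 with the 75th percentile to 0.03. Without middle sample 1 the 9 fell to 3, and without middle sample 2, basal sample 2 or basal sample 4 to 4. The count was 26 with median scaling, 67 with spike-in scaling and 17 with normexp, and the shares of all genes called there are not given here. The middle minus basal median of all genes was 0.04 with the 75th percentile. It was -0.03 with median scaling, -0.22 with spike-in scaling and 0.03 with normexp.

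In 76 of the 84 genes the step from apex to middle was the larger of the 2 steps in size. This count was not made over all genes, so it cannot be called particular to the members. In the brightest decile, which held 75 members, the medians over all its genes had the same order, at -0.15 for apical minus middle and -0.11 for middle minus basal. When the 2 steps were set against each other in one contrast, 0 members passed (1.15% and 0.861% of all genes passed in the 2 directions). An unadjusted p under 0.05 was reached by 23 of the 84 members and by 4368 of the 19505 genes. With cyclic loess 1 member passed (0.451% of all genes), Cox8b (adjusted p = 0.049), with the middle turn above the midpoint of the others. Every array of the base lay above every array of the apex in 72 members (21.6% of all genes were called in this direction and 21.4% separated this way). For the middle turn above the apex this held for 71 members and 13.5% of genes, and for the base above the middle turn for 28 and 11.6%.

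The other genes of energy metabolism were taken from lists of names. Beside the counts below, 21.6% of all genes were called higher in the base and 17.6% higher in the apex. In the brightest decile these calls were made for 57.7% and 8.48% of the genes that are no members. Of 18 carriers of electrons and ATP and uncoupling proteins, 12 were higher in the base than in the apex and 0 higher in the apex, with a median of -0.32. Cycs, cytochrome c and outside the rule for named genes, stood at -0.45 (adjusted p = 0.0033) and Ucp2 at -0.88 (adjusted p = 7.2e-05). Of 22 genes of the citric acid cycle and pyruvate dehydrogenase 11 were higher in the base and 0 higher in the apex (median -0.14). Of 31 measured assembly factors 15 were higher in the base and 2 in the apex (median -0.16). Glycolysis had 10 genes of 17 higher in the base and 3, Eno2, Aldoc and Hk2, higher in the apex (median -0.29). The mitochondrial ribosomal proteins, which make the mitochondrially encoded subunits, had 52 of 76 higher in the base and 1 higher in the apex (median -0.25). With cyclic loess the numbers higher in the base were 8, 7, 13, 7 and 34 for these 5 lists, with medians of -0.23, -0.03, -0.14, -0.08 and -0.13. Of all genes 21% were then called higher in the base, and of the other genes in the brightest decile 35%. The numbers higher in the apex with cyclic loess are not given here. Mitochondrially encoded subunits were not found under the names searched.

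Of 14 regulators of mitochondrial biogenesis, 2 were higher in the base (21.6% of all genes) and 2 higher in the apex (17.6% of all genes), with a median of -0.03. These counts lay near the shares over all genes. Esrra, a nuclear receptor that acts on mitochondrial genes, was higher in the base at -0.67 ± 0.048 (adjusted p = 2.8e-06), and at -0.61 (adjusted p = 6.2e-06) with cyclic loess. Ppargc1b, a coactivator, was higher in the apex at 0.54 ± 0.12 (adjusted p = 0.0046), and Tfb1m at 0.36 (adjusted p = 0.0012). Ppargc1a, Nrf1, Gabpa, Tfam and Yy1 stood between -0.07 and 0.08 and were not called.

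Cell type markers moved along the same axis, and their part in the results above was not tested. Beside the marker counts, 21.6% of all genes were called higher in the base and 17.6% higher in the apex. Marker counts under cyclic loess are not given here. Of 10 marginal cell markers 8 were higher in the base than in the apex and 0 higher in the apex, with a summed signal of 89900 to 118000 in apical, 133000 to 195000 in middle and 142000 to 186000 in basal arrays. Of 9 intermediate cell markers 7 were higher in the base, with sums of 41200 to 47900 in apical and 61500 to 82700 in basal arrays. Of 10 spiral ligament fibrocyte markers 9 were higher in the base and 1 higher in apical, with sums of 486000 to 542000 in the apex, 631000 to 714000 in middle and 853000 to 961000 in basal arrays. Hair cell, supporting cell, neuron and Schwann cell markers went the other way. Of 12 hair cell markers 10 were higher in the apex (sums 25400 to 29400 against 7220 to 15600 in the base) with Atoh1 not well above background, and of 12 neuronal markers 10 were higher in apical and 1 in basal arrays (42000 to 53800 against 9180 to 35500). All 7 Schwann cell markers were higher in the apex, at sums of 13400 to 15100 against 6600 to 12700. Middle sums were 21200 to 27500 for hair cell, 39600 to 69200 for neuronal and 14200 to 17200 for Schwann cell markers. Each of these overlapped the apical sums. Of 9 supporting cell markers 4 were called toward the apex and 0 toward the base, with sums of 67700 to 76500 in apical, 58600 to 63800 in middle and 43600 to 49700 in basal arrays, without overlap. Of 10 bone and osteoclast markers 1, Dmp1, was higher in the base (sums 3430 to 18300 in apical and 10200 to 12300 in basal arrays).

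Because Cox7a1 and Cox8b are known from muscle and brown fat, markers of these tissues were also summed. Of 16 skeletal muscle markers 4 were higher in the base than in the apex, Acta1 among them at -0.93, with sums of 826 to 868 in apical, 859 to 975 in middle and 996 to 1300 in basal arrays, while Myh4 stood at 0.03 and was not called. This share of 25%, like that of the brown fat markers, lay near the 21.6% of all genes called in this direction. Of 8 brown fat markers 2, Dio2 and Cidea, were higher in the base, at -1.32 and -1.01, with sums of 583 to 748 in apical, 663 to 756 in middle and 1060 to 1450 in basal arrays. Elovl3 and Fabp4 were not well above background, and Ucp1 was not called at -0.24. Of 10 cardiac and slow muscle markers 3 were higher in apical (17.6% of all genes) and 0 in basal arrays. Their sums were 1170 to 1270 in apical, 929 to 1020 in middle and 809 to 900 in basal arrays, which did not overlap. Macrophage markers were higher in the base in 8 of 9, with sums of 6150 to 9150 in apical and 8990 to 11000 in basal arrays.

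The promoters of the members were read for 3 motifs of factors known to act on genes of oxidative phosphorylation, since many of these genes moved together. A window held 300 bases, 250 before and 50 after the start of the gene (RefSeq, GRCm38.p6, gene strand), and was given for 68 of the 84 members. The letters searched, on both strands, were GCATGCGC for nuclear respiratory factor 1, CCGGAAGT for ETS factors such as GABP, and AAGATGG for YY1. Sdhb and Cox6a1 are printed for the first, Uqcr11 for the first and the second, and Atp5j for the third, with the motifs in capitals. In Cox6a1 the motif overlaps its own reverse complement. Cox7a1, which differed by the widest margin, is printed beside them and holds none of the 3.
Sdhb promoter, chr4:140961021-140961320 (GRCm38.p6, plus strand): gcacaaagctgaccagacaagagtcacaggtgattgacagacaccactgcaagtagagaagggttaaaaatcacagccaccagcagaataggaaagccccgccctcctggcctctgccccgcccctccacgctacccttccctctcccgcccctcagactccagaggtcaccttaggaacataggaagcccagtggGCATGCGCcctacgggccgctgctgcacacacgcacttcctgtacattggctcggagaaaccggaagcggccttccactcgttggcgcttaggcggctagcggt
Cox6a1 promoter, chr5:115348909-115349208 (GRCm38.p6, minus strand): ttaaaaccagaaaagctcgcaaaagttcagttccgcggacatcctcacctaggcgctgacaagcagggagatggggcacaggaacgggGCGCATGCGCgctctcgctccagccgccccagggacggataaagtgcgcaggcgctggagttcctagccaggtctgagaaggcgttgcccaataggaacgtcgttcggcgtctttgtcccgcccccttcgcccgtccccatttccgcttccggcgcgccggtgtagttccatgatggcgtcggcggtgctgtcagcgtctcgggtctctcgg
Uqcr11 promoter, chr10:80406772-80407071 (GRCm38.p6, minus strand): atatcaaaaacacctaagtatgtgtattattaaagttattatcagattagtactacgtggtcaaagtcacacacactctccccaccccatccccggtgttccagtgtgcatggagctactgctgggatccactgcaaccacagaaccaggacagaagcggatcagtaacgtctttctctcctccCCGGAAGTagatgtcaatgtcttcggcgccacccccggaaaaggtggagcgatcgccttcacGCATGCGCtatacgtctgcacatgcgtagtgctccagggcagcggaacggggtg
Atp5j promoter, chr16:84834927-84835226 (GRCm38.p6, minus strand): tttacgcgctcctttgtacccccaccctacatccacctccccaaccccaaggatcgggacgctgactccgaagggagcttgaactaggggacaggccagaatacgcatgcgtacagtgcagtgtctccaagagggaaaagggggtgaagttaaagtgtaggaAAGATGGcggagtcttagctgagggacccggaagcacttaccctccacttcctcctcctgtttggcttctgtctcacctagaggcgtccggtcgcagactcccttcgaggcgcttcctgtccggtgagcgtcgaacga
Cox7a1 promoter, chr7:30183921-30184220 (GRCm38.p6, plus strand): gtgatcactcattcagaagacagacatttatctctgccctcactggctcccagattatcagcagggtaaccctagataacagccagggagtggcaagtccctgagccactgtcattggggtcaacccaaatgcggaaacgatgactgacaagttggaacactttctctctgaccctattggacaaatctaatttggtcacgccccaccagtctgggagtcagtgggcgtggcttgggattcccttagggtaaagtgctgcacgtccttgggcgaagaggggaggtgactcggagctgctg
The first motif was found in 9 of the 68 members, or 13.2%, against 4.29% of 14974 genes of the array with a window and 2.71% of all windows. The second was in 5 (7.35%, against 6.25% and 3.89%) and the third in 12 (17.6%, against 7.47% and 6.34%). In all, 25 members held at least 1 of the 3 (36.8%, against 16.7% and 12.2%). Their median apical minus basal difference was -0.32, and that of the 43 members without a motif -0.33. A match is a description of the letters and not a binding site.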

How the data were processed

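Total RNA from 3 turns of the cochlea (12 arrays, 4 per turn) was measured on 1-colour Agilent exon arrays. The deposited array files hold the intensity of each spot, background-corrected by the authors with Agilent Feature Extraction 10.7.3.1, and the value table of the series held the same values. From these, control spots and 622 flagged spots were left out (165865 probes used), each array was divided by its 75th percentile and brought back to a common level, log2 values of the probes of a gene were averaged (19505 genes), and the 3 turns were compared in one limma fit (limma 3.58.1, R 4.3.3) over all genes and 12 arrays with Benjamini-Hochberg adjustment. The signals printed are these scaled intensities. Alternatives were quantile, median, cyclic loess and spike-in scaling (10 spike-in probes), normexp background correction (offset 50), the median of probes, dim-probe filters, 16 added to each signal, transcripts in place of genes, an unmoderated test, trend and robust options, the 2 turns alone, the sample number as a block, and each array left out.

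Correlations of the arrays' deviations were compared between array pairs with the same and with different sample numbers. Named genes were, for each comparison, up to 6 called members per direction with the widest differences, members past the 2-fold rule, core subunits, and tissue-restricted isoforms with their partners, and from other lists up to 3 called genes. Not every gene that this rule names is reported here, and Ndufs6, Uqcrb, Sdhc, Sdhd, Cycs, Cox7a2l and other genes given with values beside them were chosen after their values were seen. The members and lists were chosen with earlier results of these data known. The fits were tested on simulated data. Probe positions follow the array files (mm9), and promoters follow RefSeq (GRCm38.p6) matched by symbol or synonym.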

Additional observations from a re-analysis of the deposited data

Results flagged for a closer look

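Within each group of 4 arrays, the highest or the lowest array of each named gene, and of the members' median, was set against its neighbours with Dixon's ratio. Of 99 groups 4 exceeded its critical value for 4 arrays, where chance gives about 1 in 20 groups. Atp5e in middle sample 3 read 11400, below the other middle arrays at 14000 to 14200, and Ndufa1 in the same array read 25900, below 27300 to 27500. Cox6b2 in middle sample 4 read 525, above 400 to 415. Cox4i2, which is dim, read 54.2 in basal sample 1, above 42.2 to 42.7. The cause of these values was not tested.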

How the results depend on the processing

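The counts and medians by turn changed most with the scaling. Quantile normalization called 35 members higher in the base than in the apex and 1 (Cox7a2l) lower, with a median of -0.084. It called 24 above the apex in the middle turn and 0 higher in the apex (median -0.15), 3 higher in the base than in the middle turn and 2 (Ndufa5 and Ndufs1) the other way, and turned the middle minus basal median to 0.013. Cyclic loess gave 30 and 1 for base and apex (median -0.053), 17 and 0 for middle turn and apex (median -0.128), and 3 and 1 for base and middle turn (median 0.027). Median scaling gave medians of -0.445 for apical minus basal and -0.155 for middle minus basal, called 0 members higher in the apex than in the middle turn, and called 26 higher in the base than in the middle turn. Spike-in scaling gave -0.747, -0.415 and -0.349 for apical minus basal, apical minus middle and middle minus basal. It called 67 higher in the base than in the middle turn and 0 higher in the apex than in the middle turn. It put 5 members (Atp5e, Atp5j, Cox4nb, Cox7a1 and Cox8b) past the 2-fold rule. For apical minus basal the median of all genes was -0.078 with quantile, -0.035 with cyclic loess, -0.153 with median and -0.454 with spike-in scaling. In the same order it was -0.044, -0.032, -0.12 and -0.227 for apical minus middle. For middle minus basal it was -0.031, -0.004, -0.026 and -0.22.

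Members called higher in the base than in the middle turn numbered 17 with normexp, 15 with only probes well above background, 15 with 16 added to each signal, 14 with the unmoderated test, 15 with trend and robust options and 5 with the 2 turns alone. The count above the base in the apex was 1 with the median of probes, with only probes well above background and with transcripts. Higher in the apex than in the middle turn was 0 with normexp, the unmoderated test and trend and robust options. The other alternatives, flagged spots kept and the value table of the series, gave the same counts. The apical minus basal sign turned in 6 called members with quantile normalization, Atp5a1 (0.02) and Cox7b (0.03) among them, and in 10 with cyclic loess, Atp5a1 (0.05), Cox5a (0.03), Cox6b1 (0.02) and Cox7b (0.06) among them, at values from 0.01 to 0.09 of which 0 were called. With spike-in scaling Cox6b2 (-0.32) and Cox8c (-0.35), not called before, turned to higher in the base. The cause was not tested.

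Arrays with the same sample number did not pair by the rule used, since 6 of 12 pairs had correlations of their deviations over 0.1 (mean 0.095, range -0.037 to 0.227, against a mean of -0.031 over 36 pairs of different numbers), although 8 of 12 arrays correlated best with their own number. With the number as a block, 1 member was called above the base in the apex, 2 higher in the apex than in the middle turn and 20 higher in the base than in the middle turn.

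Leaving out 1 array at a time, members higher in the base than in the apex ranged from 67 to 74 and the reverse from 0 to 2, and the median from -0.36 to -0.296. Above the apex in the middle turn ranged from 26 to 63, the reverse from 0 to 2, and the median from -0.279 to -0.23. Higher in the base than in the middle turn ranged from 3 to 12, the reverse from 0 to 1, and the median from -0.117 to -0.063. The 2-fold rule kept 1 member throughout. Signal over background limits the dim isoforms Cox4i2, Cox6a2, Cox7b2 and Cox8c.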

Other observations

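The apical minus basal differences of the members varied with the number of probes on the gene. Among 72 members of the 5 complexes without the tissue-restricted isoforms, the 13 genes with 8 or more probes had a median apical minus basal difference of -0.22 and the 49 with 4 or fewer probes one of -0.37. Over all genes the same split gave 0.02 and -0.05. With cyclic loess the members' medians were -0.02 and -0.07. For apical minus middle both medians were -0.26. Large subunits have more exons and more probes, and Ndufs1, Sdha, Uqcrc1, Uqcrc2 and Atp5a1 are among those with many.

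The spread within a turn was small for most members. The median SD of the log2 values over 4 arrays was 0.09 in apical, 0.07 in middle and 0.07 in basal arrays, with a highest value of 0.49, in the middle turn.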
